A study of Mus musculus with 8 samples.

Results

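The C/EBP genes Cebpa, Cebpb, Cebpd, Cebpg and Cebpz were followed in livers of hypophysectomized male mice after a single pulse of growth hormone (GH). They were selected by gene symbol and make up 5 of the 24197 genes of the authors' deposited table, and each of them is among the 10736 genes with a mean of at least 1 FPKM (fragments per kilobase of exon per 1000000 reads) over the 4 groups. The mice were CD-1, an outbred strain with no engineered allele. Their pituitary, the source of GH, was removed at 7 weeks of age, which also takes away the other pituitary hormones, and livers were collected at 11 weeks. The control group received no GH and is called untreated here, after the series' design text, although the treatment protocol mentions vehicle. The other 3 groups received recombinant GH of rat sequence in one intraperitoneal dose (125 ng for each g of body weight), and livers were taken 30, 90 or 240 min after it. Each group was sequenced as 2 pools of RNA. A pool held RNA of 4 mice by the legend, and the design text speaks of 8 individual samples pooled per condition. Any test therefore measures the spread between pools and not between mice.

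C/EBP proteins bind DNA as pairs through a basic leucine zipper. In liver, C/EBPα, the product of Cebpa, maintains the metabolic programme of hepatocytes, and C/EBPβ (Cebpb) is linked to fasting, the acute-phase response and regeneration. C/EBPδ (Cebpd) is an acute-phase factor, low in resting liver. C/EBPγ (Cebpg) lacks an activation domain and pairs with other C/EBPs and with ATF4. Cebpz carries the family name but is not a leucine zipper factor: its product resembles yeast Noc1, which acts in the nucleolus in the assembly of the large ribosomal subunit. The mRNAs of Cebpa and Cebpb are each translated into a long and a short protein, which read counts over the gene cannot tell apart.

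Cebpa, Cebpb and Cebpd have no introns in the deposited annotation, so that intronic reads, mostly derived from RNA not yet spliced, were available for Cebpg and Cebpz only. On mm9, Cebpa lies at chr7:35904312-35906951, and Cebpg lies on the same chromosome at chr7:35831441-35841585, with a gap of 62.7 kb between them. Cebpb is at chr2:167514415-167515932, Cebpd at chr16:15887379-15889638 and Cebpz at chr17:79318343-79336410. The 250 bases before the start of the gene are printed for the 3 members found in the RefSeq promoter table of build GRCm38.p6, to show which elements each holds. Capitals mark 3 kinds of element. The first is the TATA box, searched as TATAAA. The second is the core of a CREB or ATF element, searched as TGACG, which reads CGTCA on the other strand. The third is CCAAT, which reads ATTGG on the other strand. They lie at chr7:35119043-35119292 on the plus strand, chr2:167688665-167688914 on the plus strand and chr7:35056567-35056816 on the minus strand.
Cebpa: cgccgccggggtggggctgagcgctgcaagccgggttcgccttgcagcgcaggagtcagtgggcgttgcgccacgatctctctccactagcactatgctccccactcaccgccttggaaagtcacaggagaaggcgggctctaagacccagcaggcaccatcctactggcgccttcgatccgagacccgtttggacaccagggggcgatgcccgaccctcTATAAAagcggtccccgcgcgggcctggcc
Cebpb: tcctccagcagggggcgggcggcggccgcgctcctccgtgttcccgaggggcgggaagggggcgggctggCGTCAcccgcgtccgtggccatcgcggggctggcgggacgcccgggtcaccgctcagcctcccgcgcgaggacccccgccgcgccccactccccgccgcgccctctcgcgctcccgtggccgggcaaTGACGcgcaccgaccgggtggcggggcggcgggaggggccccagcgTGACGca
Cebpg: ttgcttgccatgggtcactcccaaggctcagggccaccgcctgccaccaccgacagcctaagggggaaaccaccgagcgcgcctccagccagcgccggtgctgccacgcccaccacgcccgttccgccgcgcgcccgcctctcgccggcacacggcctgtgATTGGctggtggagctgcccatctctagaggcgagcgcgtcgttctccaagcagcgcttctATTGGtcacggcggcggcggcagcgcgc
The Cebpa window held TATAAA 30 to 25 bases before the start, letters found on either strand in 12.3% of 32526 promoters of the same length. The Cebpb window held TGACG or CGTCA at 3 places, 180 to 176, 53 to 49 and 7 to 3 bases before the start, against at least one copy in 17.9% of promoters. The Cebpg window held ATTGG at 89 to 85 and 28 to 24 bases before the start, and 33.8% of promoters held CCAAT on either strand. The letters of a C/EBP site, TTGCNNAA, occur in 9.57% of promoters and those of a STAT site, TTCNNNGAA, in 7.04%; neither was in these 3 windows. The windows were rich in G and C, at 66.4% for Cebpa, 81.6% for Cebpb and 70.8% for Cebpg, where the median promoter had 52.4%. Cebpd and Cebpz are named only.

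The deposited table holds the authors' mean FPKM of each group, but the reads of the single pools could be rebuilt from the digits of those means and are used below beside the authors' ratios and adjusted p-values. For 10710 of the 10736 genes one pair of whole read numbers fitted the mean, and none of 1073 values with altered last digits could be fitted. The rebuilt totals ran from 5937824 reads for the shallower pool at 240 min to 17124712 for the deeper pool at 90 min. Which of these is pool 1 or pool 2 of the labels is not known, and pools are called the deeper and the shallower pool of their group. The 2 pools at 30 min stood apart: intronic reads per 1000000 reads of the library numbered 75129 in the deeper pool and 43062 in the shallower one, against 51992 and 55209 in the untreated pools. Hepatocyte markers (9 of 10 rebuilt, without the albumin gene Alb) summed to 23190 and 22580 FPKM in the untreated pools (deeper pool first), 16450 and 23100 at 30 min, 19290 and 18160 at 90 min and 21150 and 18920 at 240 min. The authors' deposited table calls 0 of 10 at 30 min. At 90 min it calls 1 higher and 6 lower, with Hnf4a among the lower (log2 ratio -0.63), beside 15.9% and 12.5% of all genes. At 240 min it calls 1 higher (Fgb, 0.65) and 5 lower, with Alb among the lower (-0.59), beside 14.4% and 8.58% of all genes. Kupffer cell and monocyte markers (15 of 16 listed) summed to 288.5 and 290.3 FPKM in the untreated pools and to between 201.2 and 259.5 FPKM in the GH pools. Neutrophil markers (11 of 13, with Camp at 0 in every group) summed to 36.05 and 34.71 FPKM in the untreated pools (deeper pool first), 6.89 and 21.95 at 30 min, 54.14 and 50.5 at 90 min and 22.49 and 21.06 at 240 min. Fewer cells of a type and less RNA per cell cannot be told apart in whole liver.

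In untreated liver Cebpa was the most abundant of the family per length and Cebpd the least. Only 3.35% of the measured genes had a higher untreated FPKM than Cebpa and 7.35% than Cebpb, while 37.1% lay above Cebpg, 44.8% above Cebpz and 76.7% above Cebpd. Cebpe, the granulocyte member of the family, gave 1 read in each of 2 pools and none in the others.

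**Figure D1:**
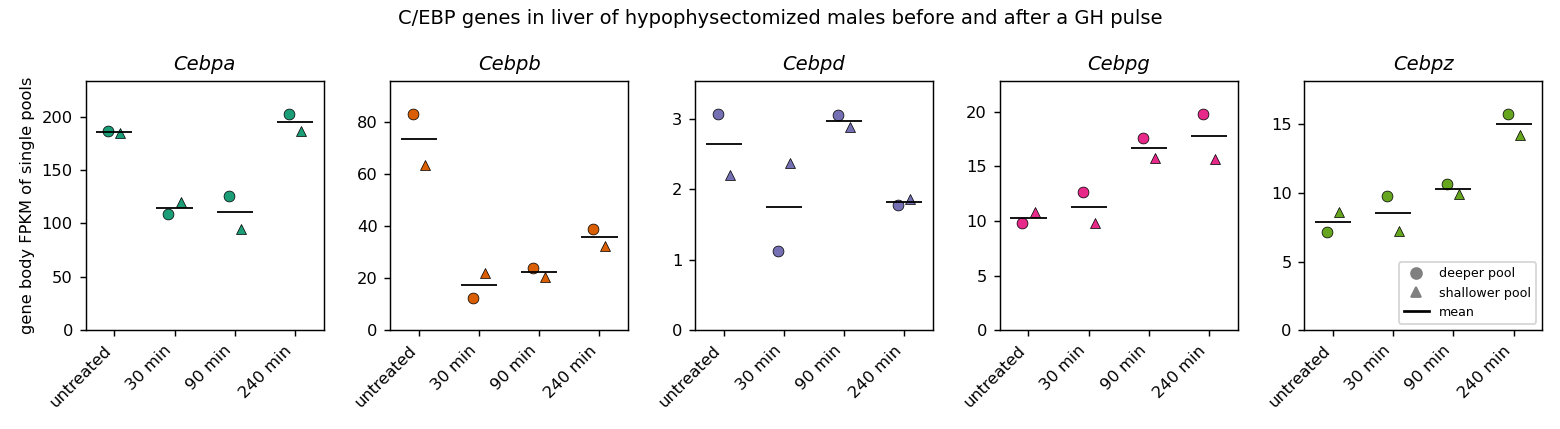
Gene body FPKM of each member (vertical axis from 0, a separate scale per gene) in the deeper pool (circle) and shallower pool (triangle) of each group, with the mean of the 2 pools as a line. All 6 GH pools of Cebpb lie below both untreated pools, Cebpa is low at 30 and 90 min only, and Cebpg and Cebpz lie above the untreated pools at 90 and 240 min.

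Cebpb fell after GH and stayed low through 240 min. Its level was 83.1 FPKM in the deeper and 63.5 FPKM in the shallower untreated pool, and 12.4 and 21.8 FPKM at 30 min. At 90 min it was 23.97 and 20.52 FPKM, and at 240 min 38.7 and 32.4 FPKM. All 6 GH pools lay below both untreated pools, and the 4 pools at 30 and 90 min lay below those at 240 min. In the authors' deposited table the normalized ratio was 4.1-fold lower at 30 min (adjusted p = 3.2e-06), 3.31-fold lower at 90 min (adjusted p = 1.6e-25) and 2.13-fold lower at 240 min (adjusted p = 1.2e-07). By the authors' deposited table, 21 of the measured genes had a lower ratio than Cebpb at 30 min, 37 at 90 min and 204 at 240 min.

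At 30 min Cebpb was the 1 member of 5 called by the authors' adjusted p, where 0.512% of measured genes were called in the authors' deposited table. At 90 min 4 of 5 members were called beside 28.4% of genes, and at 240 min 3 of 5 beside 23%, again in the authors' deposited table. A limma fit over the 8 single pools, on log2(FPKM + 0.5), was far stricter: it called 0.028% of genes at 30 min, 1.5% at 90 min and 9.42% at 240 min. In that fit Cebpb differed from the untreated pools by -2.10 ± 0.26 (log2, SE) at 30 min (limma adjusted p = 0.057), by -1.69 ± 0.26 at 90 min (limma adjusted p = 0.0183) and by -1.03 ± 0.26 at 240 min (limma adjusted p = 0.043). The call at 30 min was thus not made. Without the deeper 30 min pool, the difference at 30 min was -1.71 (limma adjusted p = 0.00665), and without the shallower one -2.50 (limma adjusted p = 0.00216), where the remaining pool is assumed to vary like the other groups. The 2 pools themselves differed beyond counting error, with 186 reads (95% Poisson interval of the level 10.7 to 14.4 FPKM) against 315 reads (19.5 to 24.4 FPKM). The pool with less Cebpb was also the pool with the lower hepatocyte and neutrophil marker sums. Its Kupffer cell and monocyte sum was lower too, at 245.6 against 259.5 FPKM. The hepatocyte markers Ttr, Cps1 and Fgb are also in the lists of C/EBP-dependent and C/EBP target genes used below. At 90 min, in contrast, the neutrophil sums were above both untreated pools and Cebpb was below them. The Kupffer cell and monocyte sums were lower in all 6 GH pools than in both untreated pools. Of 15 such markers, the authors' deposited table calls 0 higher and 4 lower at 90 min, beside 15.9% and 12.5% of genes. At 240 min it calls 2 higher and 5 lower, beside 14.4% and 8.58%, so the 2 higher are near the background. The part of any of these cells in the Cebpb values was not tested.

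In order of mean level, Cebpb ran from 30 min to 90 min, 240 min and untreated, with the pools at 30 and 90 min overlapping. The neighbours at 30 and 90 min differed by 0.41 ± 0.26 (limma adjusted p = 0.477) and those at 90 and 240 min by 0.66 ± 0.26 (limma adjusted p = 0.189), neither of which passed. Between 30 and 240 min the level rose by 1.08 ± 0.26 (limma adjusted p = 0.0402), in a contrast in which 8.1% of genes were called.

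Cebpa was lower at 90 min, and at 240 min it was back at its untreated level. Its level was 186 and 185 FPKM in the untreated pools and 109 and 120 FPKM at 30 min. At 90 min it was 126 and 95.1 FPKM and at 240 min 203 and 187 FPKM. The 4 pools at 30 and 90 min lay below both untreated pools, and the pools at 240 min lay just above them. The authors' deposited table gives a log2 ratio of -0.64 at 30 min (adjusted p = 0.895), -0.75 at 90 min (adjusted p = 2.85e-06) and 0.02 at 240 min (adjusted p = 1). With limma the difference at 90 min was -0.76 ± 0.16 (limma adjusted p = 0.0628) and did not pass, and that at 30 min was -0.70 ± 0.16 (limma adjusted p = 0.241).

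The rise of Cebpa from 90 to 240 min was 0.83 ± 0.16 on the log2 scale (limma adjusted p = 0.0305), a contrast in which 4.67% of genes were called. From 30 to 240 min it was 0.76 ± 0.16 (limma adjusted p = 0.0279). The levels at 30 and 90 min, in contrast, differed by -0.07 ± 0.16 (limma adjusted p = 0.863), where 0.523% of genes were called. Each of these between-time calls, that of Cebpb included, missed the threshold once every pool was centred on its median gene, at limma adjusted p-values of 0.0566, 0.0883 and, for Cebpb, 0.0993. The median gene of the 240 min pools lay 0.15 (log2) above that of the untreated pools, and those at 30 and 90 min lay within 0.1 of it.

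Cebpb and Cebpa did not keep their proportion. The FPKM of Cebpa was 2.24 and 2.91 times that of Cebpb in the untreated pools, 8.78 and 5.49 times at 30 min, 5.24 and 4.63 times at 90 min and 5.24 and 5.76 times at 240 min. All GH pools lay above both untreated pools in this proportion, also at 240 min, when Cebpa was no longer low. The summed FPKM of the 4 leucine zipper members was 282 and 261 in the untreated pools, 136 and 154 at 30 min, 170 and 134 at 90 min and 263 and 237 at 240 min. Of this sum Cebpb made up 29.4% and 24.3% in the untreated pools and between 9.18% and 15.3% in the GH pools. The share of Cebpg was 3.47% and 4.15% in the untreated pools and between 6.37% and 11.8% in the GH pools.

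**Figure D2:**
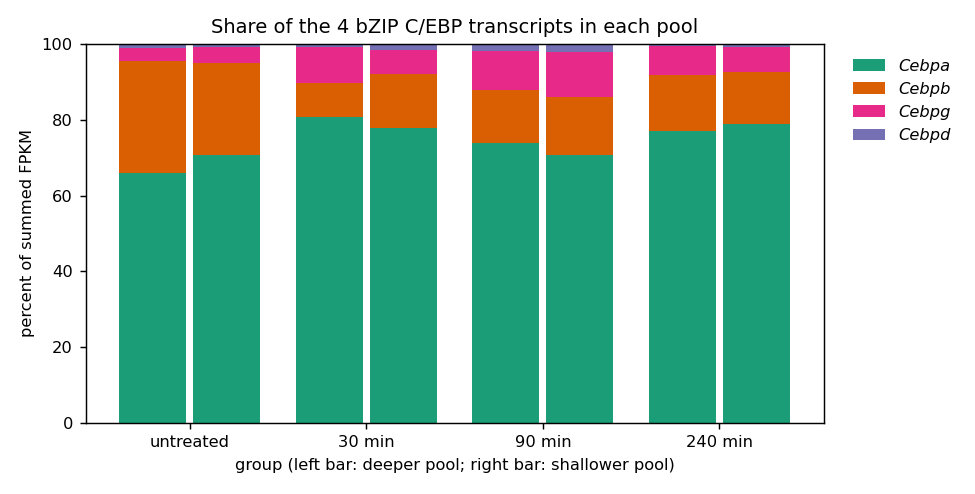
Share in percent (vertical axis) of each of the 4 leucine zipper C/EBP genes in their summed gene body FPKM, one stacked bar per pool, the deeper pool left and the shallower right. Cebpb takes 29.4% and 24.3% in the untreated pools and at most 15.3% in any GH pool, while the share of Cebpg is higher in every GH pool than in the untreated ones.

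Cebpd, the acute-phase member, was low in every pool and passed neither the authors' test nor limma over all 8 pools at any time. Without the shallower 30 min pool its difference at 30 min did pass (limma adjusted p = 0.047). Its level was 3.07 and 2.20 FPKM in the untreated pools and 1.12 and 2.38 FPKM at 30 min, from between 25 and 73 reads a pool. At 90 min it was 3.05 and 2.88 FPKM and at 240 min 1.78 and 1.86 FPKM. The pools overlapped with the untreated ones at 30 and 90 min and lay below them at 240 min. The authors' deposited table gives log2 ratios of -0.54 at 30 min (adjusted p = 1), 0.14 at 90 min (adjusted p = 1) and -0.61 at 240 min (adjusted p = 0.209). In the shallower pool at 240 min, 25 reads gave a 95% Poisson interval of 1.21 to 2.75 FPKM, and 3 reads would stand for 0.224 FPKM. Cebpd overlaps Spidr on the opposite strand by 321 bases, and no source used here gives the strand setting of the read counting.

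Cebpg, the partner without an activation domain, was higher at 90 and 240 min. Its level was 9.81 and 10.8 FPKM in the untreated pools, 12.7 and 9.81 FPKM at 30 min, 17.6 and 15.8 FPKM at 90 min and 19.8 and 15.7 FPKM at 240 min. The pools at 30 min overlapped with the untreated ones, and the 4 later pools lay above both. The authors' deposited table gives a ratio of 1.62 at 90 min (adjusted p = 1.6e-06) and 1.67 at 240 min (adjusted p = 0.000574). With limma the difference at 90 min was 0.67 ± 0.18 (limma adjusted p = 0.128), which did not pass, and that at 240 min 0.75 ± 0.18 (limma adjusted p = 0.0393). No step between neighbours in the order untreated, 30 min, 90 min and 240 min passed in that fit, the largest step being 0.56 ± 0.18 from 30 to 90 min (limma adjusted p = 0.257).

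The intronic level of Cebpg stood highest at 90 min. Intronic reads numbered 8 and 5 in the untreated pools, 16 and 3 at 30 min, 59 and 54 at 90 min and 16 and 17 at 240 min. As levels these were 0.14 and 0.123 FPKM, 0.299 and 0.058 FPKM, 0.633 and 0.645 FPKM, and 0.208 and 0.526 FPKM. The 2 pools at 90 min lay above all 6 others, by at least 4.53 times for the untreated ones, while those at 30 min straddled the untreated pools. The authors' deposited table gives a normalized intronic ratio of 3.2 at 90 min (adjusted p = 0.00128), where 14.5% of genes were called over introns. At 240 min it was 1.85 (adjusted p = 0.621), beside 11.4% of genes called, and at 30 min 1.17 (adjusted p = 1), beside 1.3%, in the authors' deposited table. With limma on log2(FPKM + 0.05) the intronic difference at 90 min was 1.92 ± 0.57 (limma adjusted p = 0.122) and did not pass. The authors' ratio is scaled otherwise than FPKM. Their mean intronic levels, 0.132 FPKM untreated and 0.639 FPKM at 90 min, lie further apart than the normalized ratio of 3.2. Intronic reads of all genes per 1000000 were also higher at 90 min, at 79260 and 79861, than in the untreated pools, and their part in this difference was not tested.

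Cebpz, the ribosome assembly factor, was higher at 240 min. Its level was 7.16 and 8.64 FPKM in the untreated pools and 9.79 and 7.23 FPKM at 30 min. It was 10.6 and 9.93 FPKM at 90 min and 15.8 and 14.3 FPKM at 240 min. The pools at 240 min lay above all 6 others, and those at 90 min lay above the untreated pools by a smaller margin. In the authors' deposited table the ratio was 1.31 at 90 min (adjusted p = 0.0422) and 1.85 at 240 min (adjusted p = 8.3e-06). With limma the difference was 0.37 ± 0.18 at 90 min (limma adjusted p = 0.294), which did not pass, and 0.89 ± 0.18 at 240 min (limma adjusted p = 0.0213). From 30 to 240 min it rose by 0.80 ± 0.18 (limma adjusted p = 0.0341, or 0.0756 with pools centred on their median gene), and no step between neighbours in the order of the groups passed over all 8 pools. The step from 90 to 240 min did pass once each pool was corrected for length and GC content (0.48, limma adjusted p = 0.0476).

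Over the introns of Cebpz, reads numbered 17 and 15 in the untreated pools, 23 and 21 at 30 min, 58 and 59 at 90 min and 40 and 23 at 240 min. The 6 GH pools lay above both untreated pools in intronic FPKM, and the authors' deposited table calls no time (adjusted p = 0.916 at 90 min and 1 at the other times). The share of all genes whose intronic pools lay apart in this way is not given here. Relative to the library total, intronic reads of all genes were also above both untreated pools in every GH pool except the shallower one at 30 min. The part of this general difference in the Cebpz values was not tested. Cebpz shares 2046 bases with Cebpzos on the opposite strand. Without a stated strand setting, reads in that stretch cannot be told apart. The log2 ratio of Cebpzos was 0.13 at 240 min (adjusted p = 1), against 0.89 for Cebpz, in the authors' deposited table.

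Across members, pools that did not overlap with the untreated ones were found for 2 of 5 at 30 min, where this held for 38.3% of genes, and for 4 of 5 at 90 min, where it held for 69.9%. At 240 min it held for all 5 members, Cebpa by a margin under 1% of its level, and for 65.5% of genes. With 2 pools against 2, an exact permutation test of a single gene cannot give a two-sided p below 0.333.

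The limma calls depended on single pools. With either 30 min pool left out, Cebpb was called at 90 min (limma adjusted p = 0.00104 without the deeper and 0.00102 without the shallower pool) and at 240 min (0.00418 and 0.0041). The same 2 fits called Cebpa at 90 min (limma adjusted p = 0.0138 and 0.0134), Cebpg at 90 min (0.0221 and 0.0215) and 240 min (0.00882 and 0.00856) and Cebpz at 240 min (0.00341 and 0.00332). Calls over all genes were also far more frequent in these 2 fits. Without the deeper 30 min pool limma called 1.65% of genes at 30 min, 18.2% at 90 min and 25.4% at 240 min, and without the shallower one 7.11%, 18.4% and 25.4%. Without any one of the other 6 pools none of these passed, except Cebpz at 240 min without either 90 min pool (limma adjusted p = 0.0476 for both). The rise of Cebpa from 30 to 240 min held without any one pool of the 30 or 90 min groups, and the other between-time calls of Cebpa, Cebpb and Cebpz only without a 30 min pool. Between 30 and 240 min 23.3% of genes were called without the deeper and 16.1% without the shallower 30 min pool. The steps from 90 to 240 min of Cebpb (limma adjusted p = 0.0285 and 0.0282) and Cebpz (0.0336 and 0.0329), not called over all pools, passed in the 2 fits without a 30 min pool, where 16.3% of genes were called. The step of Cebpg from 30 to 90 min passed without the deeper 30 min pool (limma adjusted p = 0.0243), beside 22.2% of genes, and not without the shallower one, beside 1.8%. None of the differences listed in these sentences changed sign in any of the 8 fits.

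**Figure D3:**
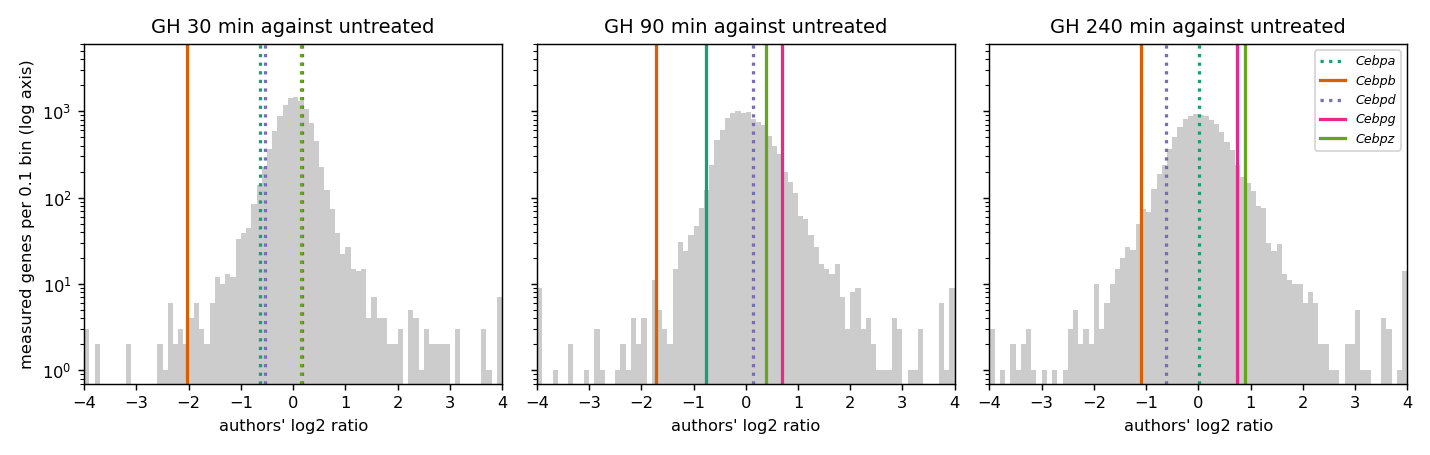
Number of measured genes (log axis) by the authors' log2 ratio of GH over untreated in bins of 0.1, with genes beyond 4 in either direction in the outermost bins, for each time. Vertical lines mark the 5 members, solid where the authors' adjusted p was below 0.05 and dotted where not; Cebpb lies in the lower tail at each time, 21 genes being lower at 30 min.

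Ratios in these data moved with GC content and transcript length, and Cebpa and Cebpb lie at the upper end in GC content. The longest GENCODE M21 transcript had 67.2% G and C for Cebpb, above 99.8% of measured genes, and 62.6% for Cebpa, above 98.9%. It had 43.3% for Cebpg and 43.4% for Cebpz, where the median was 49.6%, so that 17.7% and 18.1% of genes lay below them. Cebpd stood nearer the middle, above 60.7% of genes in GC content. Transcript length ran from above 14.3% of genes for Cebpb to above 76.1% for Cebpg. At the length and GC content of Cebpb, the fitted trend over 10314 genes stood at -0.51, -0.68 and -0.45 at 30, 90 and 240 min. With the trend over all genes removed, the authors' log2 ratios of Cebpb became -1.52, -1.04 and -0.64 at 30, 90 and 240 min. Those of Cebpa became -0.25, -0.30 and 0.36, which leaves -0.30 of the -0.75 at 90 min. Cebpg kept 0.40 at 90 min and 0.49 at 240 min, and Cebpz 0.15 and 0.65. When the same trend was taken from each single pool, limma called Cebpb at all 3 times (log2 difference -1.56, -1.08 and -0.68, limma adjusted p = 0.0116, 0.0195 and 0.0219). In that fit Cebpa at 90 min stood at -0.37 (limma adjusted p = 0.28), Cebpg at 240 min at 0.48 (limma adjusted p = 0.0512) and Cebpz at 240 min at 0.64 (limma adjusted p = 0.0145). The rise of Cebpa from 90 to 240 min remained called (0.68, limma adjusted p = 0.0322). At 30 min the authors' log2 ratios of Cebpg and Cebpz, 0.17 and 0.15, turned to -0.02 and -0.04 with the trend removed, and neither was called.

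**Figure D4:**
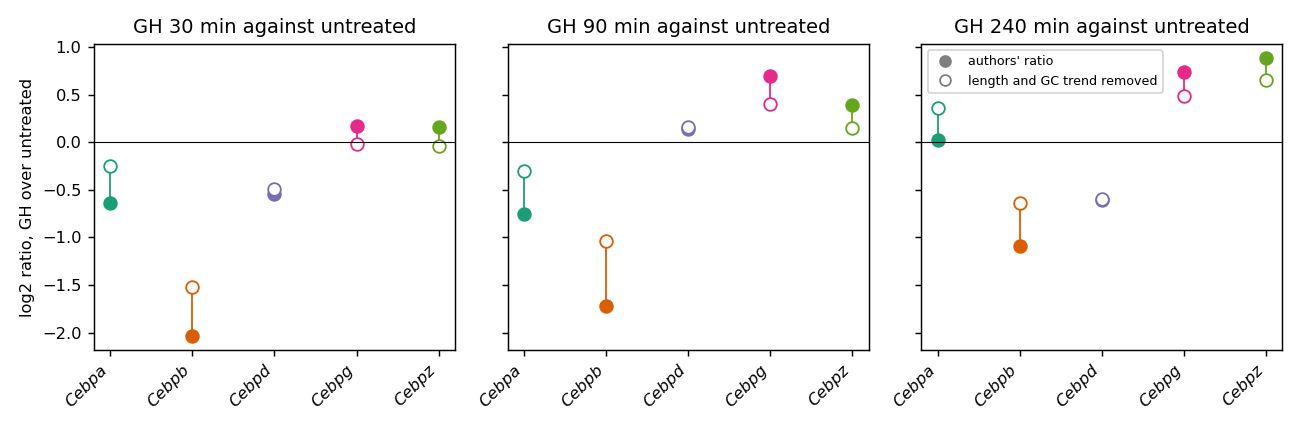
Log2 ratio of GH over untreated (vertical axis) for the 5 members at each time, as given by the authors (filled) and after the trend with transcript length and GC content over all measured genes was removed (open). Cebpb stays lowest at each time, at -1.52, -1.04 and -0.64 after removal, while the value of Cebpa at 90 min moves from -0.75 to -0.30.

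Among regulators and partners of C/EBP proteins, 18 of 22 listed genes were measured, and none was called over the gene body at 30 min in the authors' deposited table. Over introns Atf4, which encodes the partner of C/EBPγ, was lower at 30 min (log2 ratio -2.17, adjusted p = 0.0365), 1 of 16 measured there, beside 0.515% of genes called lower, in the authors' deposited table. That value rested on 8 and 1 intronic reads at 30 min (deeper pool first), against 21 and 13 in the untreated pools. At 90 min 5 were higher and 3 lower over the gene body, beside 15.9% and 12.5% of genes, among them the glucocorticoid receptor gene Nr3c1 (log2 ratio 0.67) and Creb1 (0.80), the CREB factor that acts through the TGACG element, in the authors' deposited table. Trib3, a pseudokinase, fell (-1.66) at that time, as did Ddit3, a C/EBP-related factor induced by stress (-0.80, adjusted p = 0.00055), in the authors' deposited table. At 240 min 3 of the 18 were higher and 1 lower, beside 14.4% and 8.58% of genes, so these numbers are near the background. Atf4 was then higher over the gene body (0.56, adjusted p = 0.00872), Id2 was higher (0.96) and the CREB coactivator gene Crtc2 was lower (-0.53) in the authors' deposited table. Stat3, an upstream activator of acute-phase genes, and Trib1, whose product directs C/EBPα to degradation, were called over the gene body at no time in the authors' deposited table. Over introns 2 of 16 were higher and 1 lower at 240 min, beside 5.4% and 5.97% of genes, in the authors' deposited table. The lower one was Stat3 (-1.04, adjusted p = 9.8e-06), and Calr (1.05) and Atf5 (1.09) were higher. The 11 measured ATF4 target genes had 0 higher and 2 lower at 90 min and 4 higher and 1 lower at 240 min, when the tRNA synthetase genes Aars (0.56) and Cars (0.54) rose, in the authors' deposited table. The shares over all genes were 15.9% higher and 12.5% lower at 90 min and 14.4% and 8.58% at 240 min in that table, so the 2 lower at 90 min are near the background.

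Metabolic genes listed as dependent on C/EBP factors in liver were called lower more than higher. Of 26 measured, 0 were higher and 1 lower at 30 min in the authors' deposited table, beside 0.224% and 0.289% of genes. Called there were 4 higher and 10 lower at 90 min, beside 15.9% and 12.5%. At 240 min these were 3 and 11, beside 14.4% and 8.58%. The numbers called higher at 90 and 240 min are thus near the background. The gluconeogenic gene Pck1 had a log2 ratio of -1.12 and the tyrosine aminotransferase gene Tat of -1.09 at 90 min, and the glucose transporter gene Slc2a2 fell by 1.01 at 240 min in the authors' deposited table. Igf1, the growth factor induced by GH, rose within the same list, by the authors' deposited table to log2 ratios of 1.53 at 90 min and 2.45 at 240 min. Over introns 16 of 25 were lower and 3 higher at 90 min, beside 6.61% and 7.9% of genes, with a median log2 ratio of -1.15 where that of all genes was 0.06, in the authors' deposited table. At 30 min Pck1 and Tat were already called lower over introns in the authors' deposited table, without a call over the gene body.

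Acute-phase and inflammatory genes listed as C/EBP targets showed a split between intronic and gene body reads at 240 min. Over introns 22 of 26 were lower and 0 higher in the authors' deposited table, where 5.97% of genes were lower and 5.4% higher, and the median log2 ratio was -2.03 against 0.04 for all genes. Over the gene body 5 were lower and 5 higher, beside 8.58% and 14.4% of genes, with a median of -0.02 against 0.03, in the authors' deposited table. The serum amyloid A genes Saa1 and Saa2 had intronic log2 ratios of -4.64 and -4.95, the metallothionein gene Mt2 of -5.11 and Serpina3n of -2.60 in the authors' deposited table. The fibrinogen gene Fga (0.74) and Lrg1 (0.92), in contrast, rose over the gene body at 240 min in the authors' deposited table. Saa1 and Saa2 are near-identical, so their separate values are uncertain. At 30 min 2 of 26 were lower and 0 higher over introns, beside 0.515% and 0.788% of genes, and 1 lower and 0 higher over the gene body, beside 0.289% and 0.224%, in the authors' deposited table. At 90 min 3 were lower and 1 higher over introns, beside 6.61% and 7.9% of genes, as the authors' deposited table calls them. Over the gene body 7 were lower and 2 higher at that time, beside 12.5% and 15.9%. The intronic counts at 90 min are near the background.

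**Figure D5:**
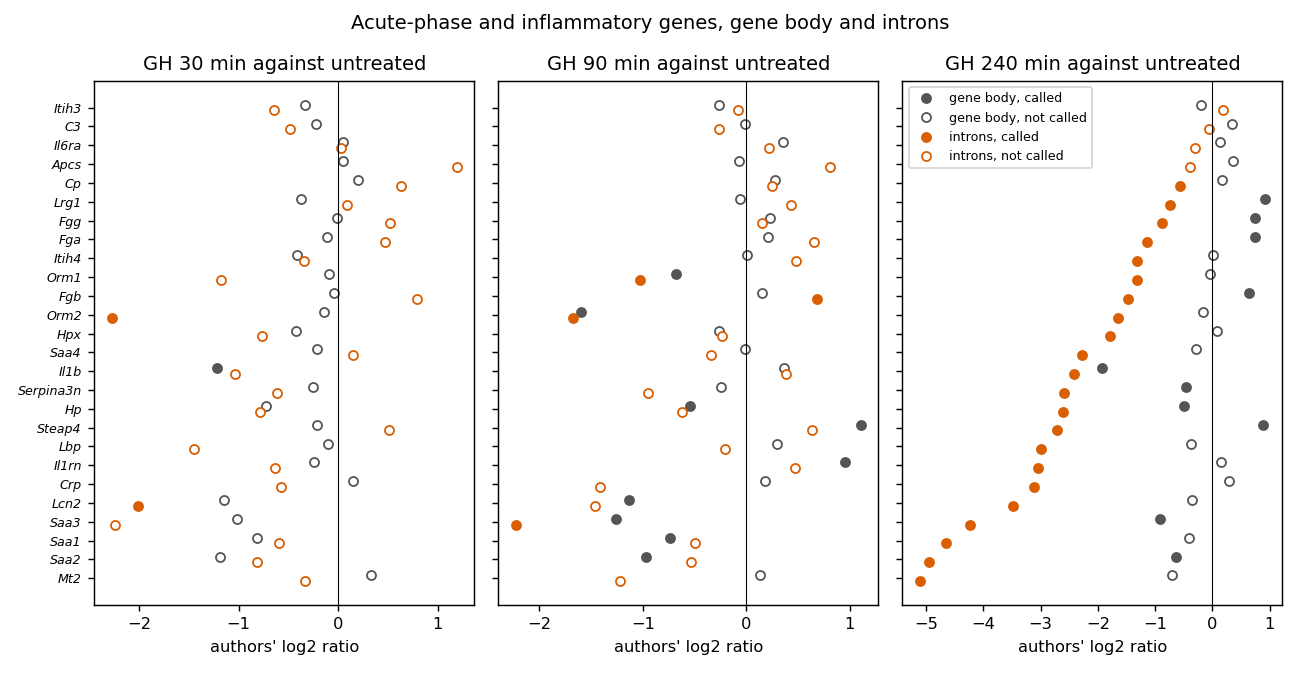
The authors' log2 ratio (horizontal axis, a separate scale per time) of 26 acute-phase and inflammatory genes over the gene body (grey) and introns (orange), filled where the authors' adjusted p was below 0.05. At 240 min 22 intronic values are filled and lie below 0, while filled gene body values lie on both sides of 0.

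Genes listed as factors that assemble the large ribosomal subunit, the process in which the Cebpz product acts, were mostly higher at 240 min. Of 25 measured, 0 were called at 30 min in the authors' deposited table, 7 were higher and 0 lower at 90 min and 22 were higher and 0 lower at 240 min, with medians of 0.12, 0.14 and 0.78 against 0.02, -0.01 and 0.03 for all genes. Over all genes 15.9% were called higher and 12.5% lower at 90 min, and 14.4% and 8.58% at 240 min. Nop58 had log2 ratios of 1.36 at 90 min and 2.11 at 240 min, and the nucleostemin gene Gnl3 of 0.90 and 1.59, in the authors' deposited table. Nop58 encodes a core protein of small nucleolar particles, so the list is not confined to assembly of the large subunit. Cebpz, at 0.89, lay above the median of that list at 240 min. Over introns 1 of 24 was higher and 0 lower at 240 min in the authors' deposited table. Beside 5.4% and 5.97% of all genes, the 1 higher is near the background.

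The genes closest to each member over the 3 log2 ratios were found by the root mean square difference among the other 10735 measured genes. Those closest to Cebpb were Efna1, an ephrin gene (difference 0.169), the chemokine gene Cxcl10 (0.206) and Gdf15 (0.258). Efna1 and Cxcl10 were called lower at all 3 times in the authors' deposited table, and Gdf15 at 30 and 90 min. Closest to Cebpa were Sertad1 (0.0523), Adprhl2 (0.0653) and Ifit3 (0.075). Usp42, Eml4 and Fam135a were within 0.0249 of Cebpg, and Mfsd7b, Trim12c and Gga3 within 0.0336 of Cebpz. For Cebpd these were Ppp1r18, Gm16675 and Zmym6, within 0.0564. The 3 ratios share the untreated pools, so such profiles are not independent over times.

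Within 50 kb of the members, most neighbouring genes were not called, and A530013C23Rik, Prkdc and Sult6b1 lay under 1 FPKM in every group. Called in the authors' deposited table were Tmem189, 27.4 kb from Cebpb (log2 ratio -0.60 at 90 min and -0.80 at 240 min), Mzt2, 23963 bases from Cebpd (-0.70 at 90 min), and Eif2ak2, 36.4 kb from Cebpz (0.69 and 0.74). Of all measured genes 28.4% were called at 90 min and 23% at 240 min, so calls among neighbours are near the background. Pepd, 1.7 kb from Cebpg, and Ndufaf7, 64 bases from Cebpz, were called at no time in the authors' deposited table.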

How the data were processed

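Liver poly-A RNA of 8 pools, 2 per group, was sequenced from directional libraries, per the labels' protocols. The submitters' processing notes list TopHat2, featureCounts, edgeR and mm9 without versions. The authors deposited mean FPKM per group for gene body and intronic reads, per the file headers. They also deposited a normalized ratio of GH over untreated and an adjusted p-value, per the file headers, and the method of adjustment is not stated in the sources used here. The authors' signed fold change restates the ratio and was not used. The deposited starts count from 0, and coordinates are printed from 1.

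The members and gene lists were chosen with earlier results of these data known. Calls are genes with an authors' adjusted p under 0.05, and a gene counted as measured where its mean was at least 1 FPKM (for introns also 0.01 intronic FPKM). Reads per pool were rebuilt by searching the exonic length, up to 20000 bases, at which the mean FPKM of the 2 pools gives whole reads for both library totals. These totals came from genes at a single read. Reads were rebuilt for 99.8% of measured genes, and intronic reads for 99.9% of 10244 genes tried. The step was tested on simulated data. Because the rebuilt pools carry no label number, they were tested only by group, with limma on log2(FPKM + 0.5), or + 0.05 for introns, with an intensity trend and Benjamini-Hochberg adjustment over all genes. This fit and the contrasts between times were chosen after seeing the data, when the plan had foreseen either counts or no test. Poisson intervals and floors cover counting error only.

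Named genes were all members and Ddit3, Trib1, Atf4 and Stat3. Per list and comparison the rule added up to 4 called genes with the smallest adjusted p, and per member the 3 nearest profiles and the neighbours within 50 kb. Only some of these are printed. Cebpe and Cebpzos were named after their values were seen. GC content and length came from the longest GENCODE M21 transcript, matched by symbol for 96.1% of measured genes, for these properties alone, as its build differs from mm9. R 4.3.3 with limma 3.58.1, Python 3.11.15 with scipy 1.17.1, pandas 2.3.3, numpy 2.4.6 and matplotlib 3.10.9 were used.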

Additional observations from a re-analysis of the deposited data

Results flagged for a closer look

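The difference between GH times passed the limma test for 3 members, each against the shared fit over 8 pools. Over all genes 4.67% were called from 90 to 240 min and 8.1% from 30 to 240 min. Cebpa was higher at 240 min than at 90 min by 0.83 on the log2 scale (limma adjusted p = 0.0305) and than at 30 min by 0.76 (limma adjusted p = 0.0279), in both pools of each time. Cebpb was higher at 240 min than at 30 min by 1.08 (limma adjusted p = 0.0402). Cebpz was higher at 240 min than at 30 min by 0.80 (limma adjusted p = 0.0341). In the same order, all 4 missed the threshold with pools centred on their median gene (limma adjusted p = 0.0566, 0.0883, 0.0993 and 0.0756). The 30 min pools stood apart from each other in intronic reads, and without the deeper of them these differences from 30 min were 0.70 for Cebpa, 0.68 for Cebpb and 1.00 for Cebpz. Without the shallower one they were 0.83, 1.47 and 0.59. All 4 calls passed without either 30 min pool and were lost without any one untreated or 240 min pool, and also without either 90 min pool except for Cebpa from 30 to 240 min.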

How the results depend on the processing

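Calls of members over the gene body by the authors' adjusted p numbered 1, 4 and 3 of 5 at 30, 90 and 240 min, beside 0.512%, 28.4% and 23% of genes. With a change of at least 2-fold required as well, Cebpb alone was left at each time, at 4.1-fold, 3.31-fold and 2.13-fold lower. The share of all genes under that stricter rule is not given here. The limma fit on single pools called 0 at 30 min, also with a pseudocount of 0.1 and with pools centred on their median gene. It called 1 (Cebpb) with a pseudocount of 1 (limma adjusted p = 0.0497), beside 0.0467% of genes, and with the trend removed, beside 0.0875%. At 90 min it called 1 in each of its 5 settings, beside 1.36% to 1.54% of genes. Over introns at 90 min it called 0 in each of its 5 settings, beside 1.66% to 2.42% of genes. The authors' table calls 1 there, beside 14.5% of genes. Leaving out 1 pool at a time leaves 1 pool in a group, and the limma calls then moved with the pool left out. Over these 8 fits the intronic difference of Cebpg at 90 min ranged from 1.86 to 1.99. Calls made without a 30 min pool were the most numerous at all 3 times over the gene body, for members and over all genes. The cause was not tested. The difference of Cebpb at 30 min ranged from -2.50 to -1.71 (limma adjusted p from 0.00216 to 0.381) and was called in 2 of these 8 fits, that at 90 min from -1.88 to -1.50 (2 of 8) and that at 240 min from -1.22 to -0.83 (2 of 8). Cebpg at 240 min kept its direction in every fit and missed the threshold with pools centred (0.60, limma adjusted p = 0.0738). No called value changed sign. No paired analysis was possible because the rebuilt pools carry no label number. Single genes cannot be tested by permutation at this size, and Cebpd and the intronic values rest on few reads.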
